A study of Equus caballus with 6 samples.

Results

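Transcripts of the cytosolic ribosomal proteins, the protein subunits of the ribosomes that translate nuclear messages, were measured in equine lamellar hoof tissue with laminitis and in normal tissue of the same kind. Members were the probe sets whose single gene symbol in the platform annotation starts with RPL or RPS followed by a digit, or is RPLP0, RPLP1, RPLP2 or RPSA, without the RPS6K kinases. This gave 98 probe sets for 69 genes, of 24016 probe sets and 9155 named genes in all, with 43 genes named for the large subunit and 26 for the small subunit. Each of 6 right-foot samples was read on its own Affymetrix bovine GeneChip: 3 with laminitis, numbered 1, 3 and 4, and 3 normal ones, numbered 2, 3 and 4. A bovine array reads the horse's messages only as far as its probes match them, and values are array signals on a linear scale. The sources used here do not give how the laminitis came about, the breed, age or sex of the horses, or whether the samples are separate animals. The p-values therefore rest on how these 6 samples scatter, and that scatter may be technical.

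A cytosolic ribosome joins a small subunit, which reads the message, to a large subunit, which forms the peptide bond, and most of its proteins are needed in a single copy per ribosome. Their messages are short and abundant in nearly every tissue and carry a pyrimidine tract at the 5′ end, through which mTOR signalling governs how well they are translated. In the lamellae, where epidermis and dermis interlock to suspend the coffin bone, every cell type makes these messages, so they mark none of them.

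Of 80 standard subunit genes 62 were among the members, and the other 18 were not analysed here as members. The 7 members that are not standard subunit genes were 5 paralogues (RPL3L, RPL7L1, RPL26L1, RPS27L and RPS4Y1), RPL15P, and RPS19BP1, whose product binds RPS19 and is not a subunit. The test took in probe sets whose signal exceeded the array median on 3 or more of the 6 arrays, and a gene was described by its brightest such probe set. This left 67 member genes, 42 of the large and 25 of the small subunit, and 65 remained when all 6 arrays had to exceed the median. RPL37 and RPS19, a protein of the small subunit known for its mutation in Diamond-Blackfan anaemia, had no probe set bright enough. The RPL37 signals were 20.8, 57.9 and 61.4 in laminitis and 10.9, 59.9 and 13.4 in normal tissue, below every array's median of 86.7 to 96.6.

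The members that were tested belonged to the brightest part of the array. In all, 56 of 67 were among the brightest 10% of the 6151 genes tested, and the median member lay at the 99.2 to 99.3 percentile of the tested probe sets of each array. Together they made up 8.22% to 8.69% of the summed signal of all probe sets on the laminitis arrays and 7.18% to 7.55% on the normal arrays, without overlap. The order of the 67 signals hardly differed between arrays, with Spearman's rho from 0.96 to 0.99 between arrays, which share their probes and thereby most of this order.

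On the deposited scale most members were slightly higher in laminitis, by amounts that differed between genes. Over the 67 members the log2 difference ran from -0.49 to 1.19, with a standard deviation of 0.30 and a median of 0.31. The median log2 difference, laminitis minus normal, was 0.26 for the large subunit and 0.39 for the small subunit, or 1.20-fold and 1.31-fold, against -0.029 over all genes tested. The difference was positive for 32 of 42 large subunit members and 24 of 25 small subunit members, against 46.4% of all genes tested. The groups lay apart, with the lowest laminitis value above the highest normal one, for 20 large and 18 small subunit members, 38 of 67 or 56.7%, where the same held for 8.7% of all genes tested. The groups lay apart in the other direction for 0 members, where that held for 8.36% of all genes tested. After quantile normalization or cyclic loess normalization these counts became 6 higher and 6 lower, and 5 higher and 9 lower. The shares over all genes tested were then 7.43% higher and 8.11% lower, and 7.95% higher and 7.43% lower. The members' counts lay near these shares, except that the 9 of 67 lower after cyclic loess normalization lay above theirs. The medians changed to -0.086 and -0.15 for the large and 0.020 and 0.022 for the small subunit. Over all genes tested they were -0.023 and -0.0087.

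None of the single differences passed the test over all genes. Limma with Benjamini-Hochberg adjustment called 0 of 67 members higher and 0 lower, as it did for 0% of all genes tested. At an unadjusted limma p under 0.05 there were 11 members higher, 6 of the large and 5 of the small subunit (16.4%), where the share over all genes tested was 5.27%, and 0 members lower, where that share was 4.52%. The smallest adjusted p of a member was 0.322, and the standard errors of the members' log2 differences ran from 0.17 to 0.44 with a median of 0.20 in each subunit.

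**Figure D1:**
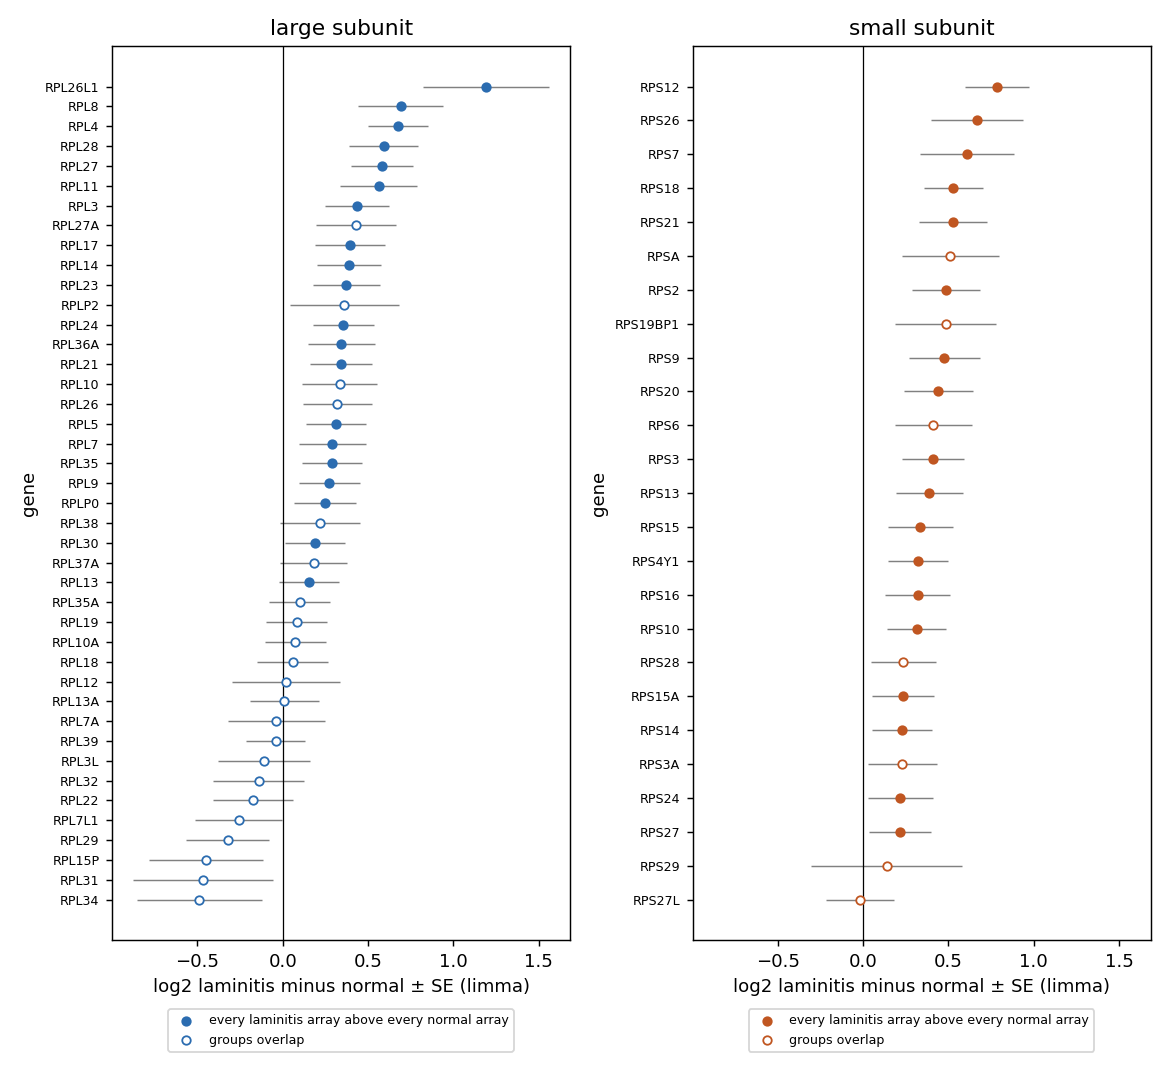
Log2 difference, laminitis minus normal, of the brightest tested probe set of each member gene, with limma's standard error as the bar, for the large subunit (left, 42 genes) and the small subunit (right, 25 genes). Filled points, 20 and 18, are genes whose groups lie apart with laminitis higher, and open points are genes whose groups overlap.

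The members shared a pattern from array to array, and other bright genes had a similar one. Relative to each gene's mean over the 6 arrays, the median large subunit member lay at 0.22, 0.13 and 0.076 on the log2 scale on laminitis replicates 1, 3 and 4, and at -0.12, -0.15 and -0.055 on normal replicates 2, 3 and 4. The median small subunit member lay at 0.24, 0.16 and 0.071 on the laminitis arrays and at -0.21, -0.24 and -0.11 on the normal arrays. Laminitis replicate 1 held the highest value of the 6 arrays for 34 of 67 members, and normal replicate 3 the lowest for 31.

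**Figure D2:**
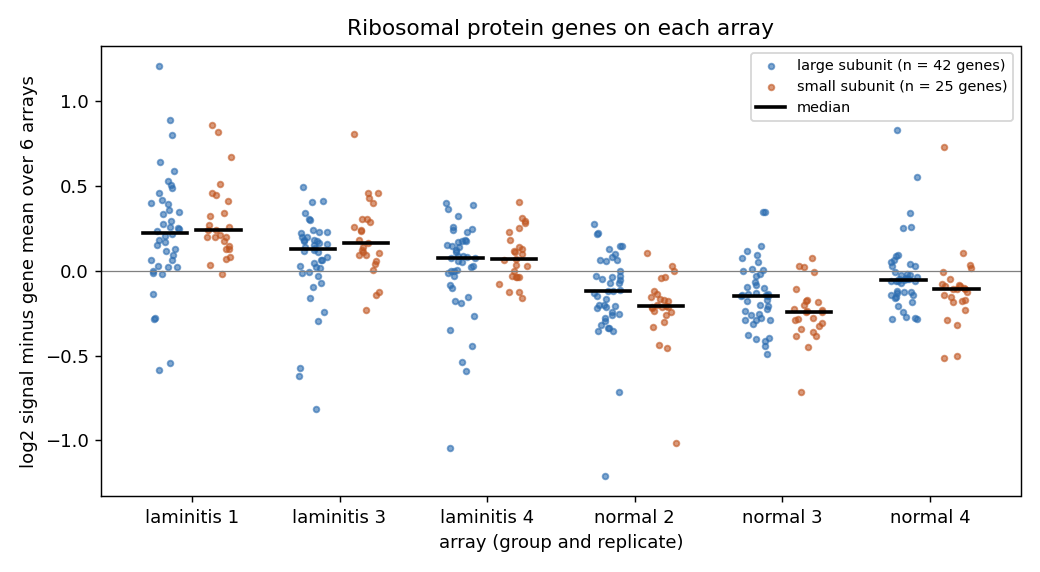
Each point is a member gene's log2 signal on an array minus its mean over the 6 arrays, for 42 large and 25 small subunit members, and the black bars are medians. The medians lie above 0 on the 3 laminitis arrays and below 0 on the 3 normal arrays, while single genes spread widely around them.

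Laminitis replicate 1 also stood apart in the median of the control transcripts meant to measure RNA ends. The median log2 ratio of 3′ over 5′ signal over 6 control transcripts was 1.75 on that array and from 0.29 to 0.99 on the other 5. Single control transcripts disagreed widely, from -7.69 to 3.70 on that array and from -8.79 to 2.78 on the others. Whether these bovine controls read the ends of horse RNA was not tested. Without laminitis replicate 1 the median differences were 0.22 for the large and 0.30 for the small subunit. The medians stayed positive without that array, and the groups then lay apart with laminitis higher for 42 members and lower for 5, where the shares over all genes tested were 13.0% and 14.2%. The part of RNA quality in the members' values was not tested beyond this.

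Bright genes outside the members, the ribosomal proteins RACK1 and FAU among them, also had a positive median on the deposited scale. Over the brightest 10% of genes with the members left out, 560 genes, the median log2 difference was 0.24, and the groups lay apart with laminitis higher for 26.4%, against 66.1% of the 56 members there. The within-group standard deviation on the log2 scale had a median of 0.16 for these 56 members and 0.27 for the other 560 genes. With signals over 4000, a limit chosen after the data were seen, 40 members had a median of 0.34 and 57 other genes a median of 0.38, with 75% and 57.9% of them higher without overlap. Among the 11 tested members below the brightest 10% the median was -0.041, and 4 were positive. Across genes, which are not independent replicates and share the arrays, Spearman's rho between signal and difference was 0.46 for the large subunit, -0.052 for the small subunit and 0.20 for all genes tested.

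**Figure D3:**
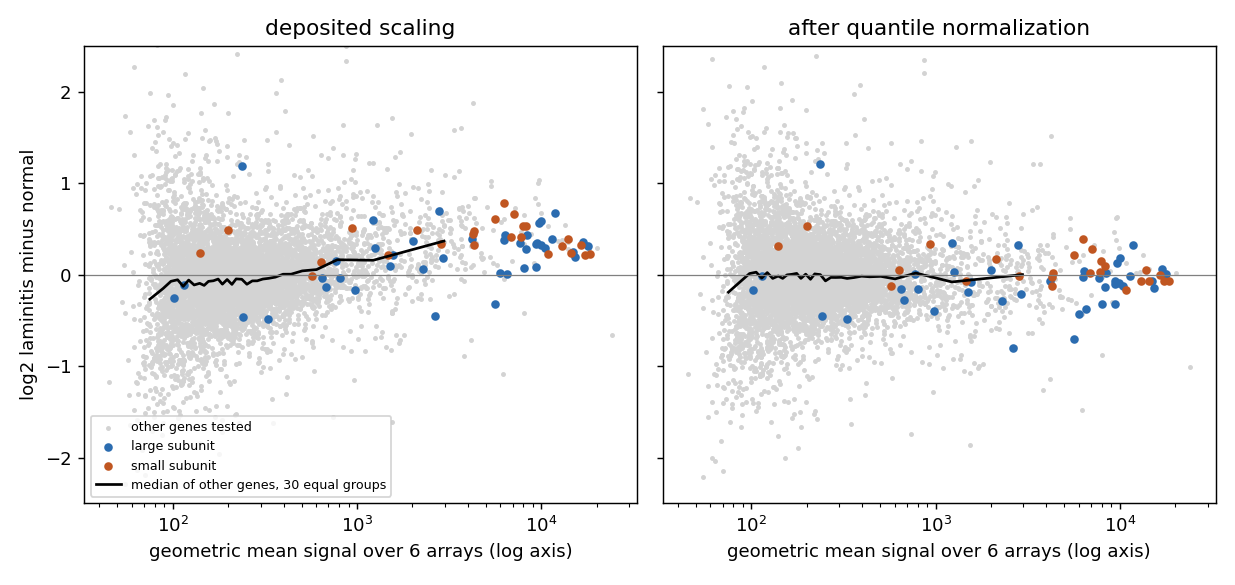
Log2 difference, laminitis minus normal, against the geometric mean signal over the 6 arrays (log axis) for every gene tested, as deposited (left) and after quantile normalization (right); 11 and 10 genes lie outside the drawn range. The line is the median of genes that are not members, in 30 groups of equal size: as deposited it climbs with brightness and most members lie beyond its bright end at similar differences, while after quantile normalization both lie around 0.

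When each array was centred on the median of the other genes in the brightest 10%, which was added with the data in view and moved the median of all genes to -0.26, the large subunit lay at 0.033 and the small subunit at 0.16. In that scaling 15 members were higher without overlap and 1 was lower, where the shares over all genes tested were 3.64% and 19.5%. The small subunit median exceeded the large subunit median by 0.13 as deposited, by 0.11 after quantile normalization, by 0.17 after cyclic loess normalization and by 0.085 to 0.16 with 1 array left out. By array, the small subunit median minus the large subunit median was 0.017, 0.034 and -0.0051 on laminitis replicates 1, 3 and 4 and -0.088, -0.093 and -0.055 on normal replicates 2, 3 and 4. The groups did not overlap in this gap, for which no test was made.

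**Figure D4:**
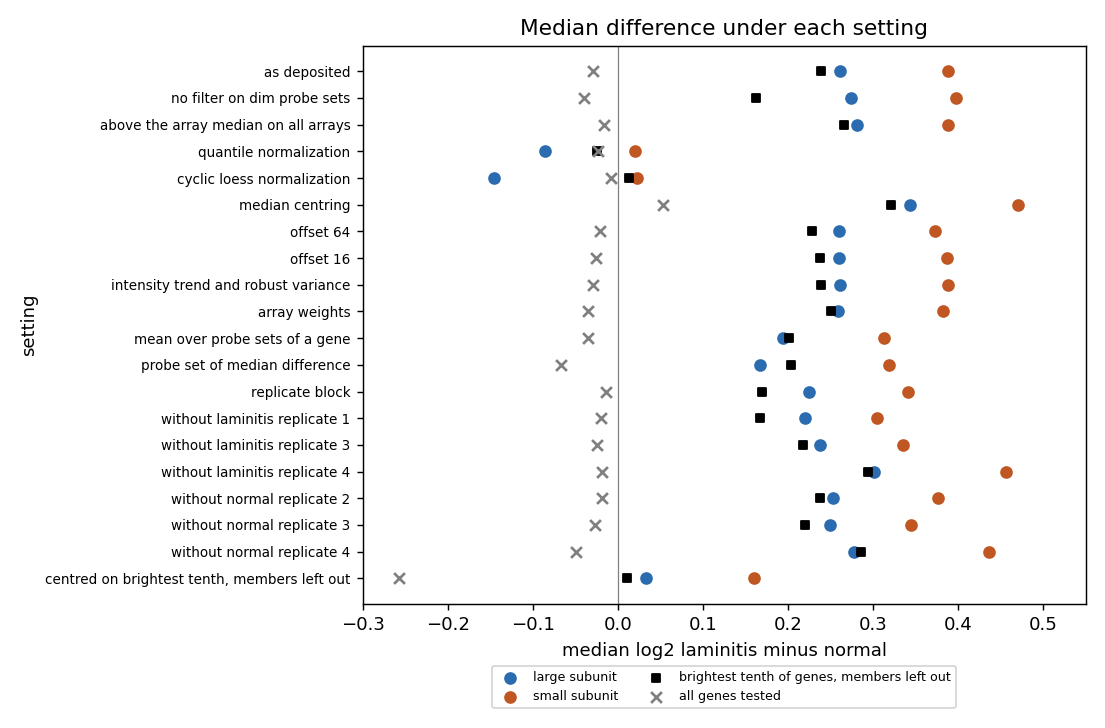
Median log2 difference, laminitis minus normal, of the large subunit, the small subunit, the brightest 10% of genes without the members, and all genes tested, under each processing setting. The subunit medians lie between 0.17 and 0.47 where arrays keep the deposited scaling or are centred on the median, and between -0.15 and 0.16 after quantile normalization, cyclic loess normalization or centring on the bright genes.

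In the large subunit RPL4, a protein that lines the exit tunnel, had the smallest p. Its signals were 14115, 15684 and 15253 on laminitis replicates 1, 3 and 4 and 9292, 9119 and 9761 on normal replicates 2, 3 and 4. The groups were far apart relative to their spread, with a 1.60-fold difference (log2 0.68 ± 0.18 SE, n = 3 per group, limma adjusted p 0.345). With 1 array left out the RPL4 difference stayed between 0.64 and 0.72, and it was 0.33 after quantile and 0.16 after cyclic loess normalization, and the groups overlapped after the latter.

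RPL27 and RPL28 were also among the 4 large subunit members of smallest p. RPL27 had signals of 11989, 11744 and 13112 in laminitis and 8040, 7535 and 9067 in normal tissue, again without overlap, and a log2 difference of 0.58 ± 0.18 (limma adjusted p 0.440). RPL28 had signals of 1681, 1549 and 1297 in laminitis against 954, 924 and 1120, and a log2 difference of 0.59 ± 0.20 (limma adjusted p 0.456). After quantile normalization RPL28 kept its groups apart at 0.34, while RPL27 overlapped at 0.18.

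RPL26L1, a close paralogue of RPL26, was dim and showed the largest log2 difference of the 67 members on the deposited scale. Its signals were 545, 315 and 267 on the laminitis arrays and 102, 193 and 194 on the normal arrays. Laminitis replicate 1 was the highest and normal replicate 2 the lowest, and the difference of 1.19 ± 0.37 (2.28-fold, limma adjusted p 0.424) moved between 0.89 without normal replicate 2 or laminitis replicate 1 and 1.40 without laminitis replicate 4. RPL26 itself had 12638, 11760 and 9276 in laminitis and 9571, 8444 and 8765 in normal tissue, where laminitis replicate 4 fell within the range of the normal arrays. The pair is close in sequence and cross-hybridisation was not tested, so both values are uncertain.

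Across the 4 scalings (as deposited, quantile, cyclic loess and centred on the bright genes) 3 members had groups apart with laminitis higher each time, namely RPL26L1, RPL28 and RPL8. RPL8, a protein near the peptidyl transferase centre singled out after its values were seen, had signals of 4872, 3175 and 2906 in laminitis and 2333, 1993 and 2295 in normal tissue. Its laminitis values were led by replicate 1, and its log2 difference was 0.69 ± 0.25 as deposited (limma adjusted p 0.480), 0.32 after quantile and 0.38 after cyclic loess normalization. A positive log2 difference under all 4 scalings was found for 19 members, 9 of the large and 10 of the small subunit. The matching shares over all genes tested were not counted, so neither count can be set against them. Centring on the bright genes lowers every deposited difference by the same amount, so it is not a separate check on the sign.

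The brightest large subunit members showed tight groups and small differences. RPL5, which carries 5S ribosomal RNA into the ribosome and can bind MDM2, had signals of 19830, 19849 and 20079 in laminitis and 15074, 16705 and 16394 in normal tissue. The laminitis values were close together and lay above all normal values, and the log2 difference was 0.31 ± 0.17. RPL24, which forms a bridge between the subunits, had 19619, 19402 and 18410 against 14532, 14090 and 16313, a log2 difference of 0.36 ± 0.18. RPL30 had 17295, 15503 and 16080 against 14002, 13777 and 15063, also without overlap, at 0.19 ± 0.18. The limma adjusted p was 0.599 for RPL5, 0.571 for RPL24 and 0.749 for RPL30, and after cyclic loess normalization their differences had the opposite sign, at -0.26, -0.21 and -0.36.

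The acidic stalk, formed by RPLP0 with RPLP1 and RPLP2, recruits translation factors to the large subunit. RPLP0 had signals of 16307, 15125 and 17470 in laminitis and 13005, 13506 and 14657 in normal tissue, without overlap, and a log2 difference of 0.25 ± 0.18 (limma adjusted p 0.682). RPLP2 had 3713 on laminitis replicate 1 and 1798 and 1773 on the other laminitis arrays, while the normal arrays had 1793, 1616 and 1926. The RPLP2 difference of 0.36 ± 0.32 (limma adjusted p 0.738) thus came from laminitis replicate 1, and without that array it was 0.0099.

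The 10 large subunit members with a negative difference included 4 with the smallest p among them, RPL29, RPL15P, RPL34 and RPL31. RPL29, a small basic protein also found at the cell surface as a heparin-binding protein, had 5870, 5790 and 3740 in laminitis and 6558, 5665 and 6694 in normal tissue. Its groups overlapped as deposited, at -0.32 ± 0.24 (limma adjusted p 0.692), but lay apart with laminitis lower after quantile normalization (-0.71), after cyclic loess normalization (-0.73) and after centring on the bright genes (-0.55). It was the 1 member lower without overlap in all 3 of these scalings, for which the share over all genes tested was not counted. Its difference moved to -0.11 without laminitis replicate 4.

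RPL15P, whose symbol marks a locus related to RPL15, had 2175, 1772 and 2992 in laminitis and 2293, 2739 and 4679 in normal tissue. Normal replicate 4 led these values, and the difference of -0.45 ± 0.33 became -0.15 without it. RPL34 had 475, 187 and 243 against 344, 358 and 484, and RPL31 had 377, 197 and 117 against 259, 308 and 289. In both, laminitis replicate 1 lay high and the other laminitis arrays low, so that the differences of -0.49 ± 0.37 and -0.47 ± 0.41 became -0.87 and -0.91 without replicate 1. Without laminitis replicate 4 the RPL31 difference was -0.061, and without laminitis replicate 3 that of RPL34 was -0.20.

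In the small subunit RPS12, a protein of the subunit's head, had the largest difference and the smallest p. Its signals were 8377, 8630 and 7797 on the laminitis arrays and 5435, 4603 and 4414 on the normal arrays. The groups lay well apart, at a 1.72-fold difference (log2 0.78 ± 0.19, limma adjusted p 0.322) that stayed between 0.72 and 0.87 with 1 array left out. The difference was 0.39 after quantile normalization, with the groups still apart, and 0.36 after cyclic loess normalization, with overlap.

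RPS18 and RPS21 had similar differences. RPS18, which sits where the head contacts the large subunit, had 9523, 10252 and 10189 in laminitis and 6739, 6712 and 7322 in normal tissue. RPS21 had 10901, 8554 and 9320 against 5857, 7057 and 7009. Both kept the groups apart as deposited, with a log2 difference of 0.53 ± 0.17 for RPS18 (limma adjusted p 0.450) and 0.53 ± 0.20 for RPS21 (limma adjusted p 0.490), and both overlapped after quantile normalization, at 0.093 and 0.15.

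RPS26, which contacts the message at the exit channel, had 12862 on laminitis replicate 1, 7114 and 7808 on the other laminitis arrays, and 6102, 5842 and 5007 on the normal arrays. Replicate 1 set much of its difference of 0.67 ± 0.27 (limma adjusted p 0.502), which was 0.40 without that array. RPS7, another MDM2-binding protein, had 8935, 6851 and 5475 against 5453, 3435 and 5054, so its groups met almost without a gap, at 0.61 ± 0.28 (limma adjusted p 0.542). RPSA, the laminin-binding protein that also acts as a small subunit protein, had 1022, 1632 and 835 in laminitis and 742, 717 and 904 in normal tissue. Its groups overlapped, and the difference of 0.51 ± 0.29 ranged from 0.24 without laminitis replicate 3 to 0.72 without laminitis replicate 4.

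The brightest small subunit members were RPS3A, RPS27 and RPS4Y1. RPS3A had 21106, 20870 and 17940 in laminitis and 16943, 14688 and 19755 in normal tissue, with overlap and a log2 difference of 0.23 ± 0.20. RPS27 had 20095, 17850 and 18237 against 15619, 15267 and 17570, and RPS4Y1 had 17323, 18436 and 19651 against 14212, 14569 and 15500. RPS27 and RPS4Y1 kept their groups apart, at 0.21 ± 0.18 and 0.32 ± 0.18, and after cyclic loess normalization all 3 differences were negative, at -0.35, -0.36 and -0.24. Limma adjusted p ran from 0.597 to 0.738. The annotation names RPS4Y1 for these probes, a symbol that was not found in the RefSeq horse gene table. Whether the probes read RPS4Y1 or its close paralogue RPS4X, not analysed here, was not tested.

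The remaining named paralogues and RPS19BP1 were dim. RPS27L, a paralogue of RPS27 known as a p53 target, had 676, 518 and 526 in laminitis and 616, 583 and 532 in normal tissue, a log2 difference of -0.018 ± 0.20. RPL7L1 had 106, 66.0 and 114 against 118, 112 and 104, and RPL3L, the paralogue of RPL3 found in striated muscle, had 78.6, 114 and 151 against 125, 123 and 110. These 3 genes showed overlapping groups and differences smaller than or near their errors, with -0.26 ± 0.26 for RPL7L1 and -0.11 ± 0.27 for RPL3L. RPS19BP1 had 352, 183 and 204 against 145, 202 and 163, a difference of 0.48 ± 0.30 that was 0.19 without laminitis replicate 1.

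Further probe sets of the same genes often gave other values. Beside the brightest, 20 tested probe sets of 15 genes were available, and 10 of the 20 had the same sign as the brightest. Of the 16 with a mean signal under 1000, 12 had a negative difference, while 3 of the 4 brighter ones were positive. The other bright RPL10 probe set gave 0.59 beside 0.33, and the 2 other RPLP0 probe sets gave 0.33 and 0.80 beside 0.25.

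The genes whose probe sets differed in sign by over 0.5 were RPL26, RPL9, RPS12, RPS4Y1 and RPS7. RPL9's brightest probe set had 9755, 9420 and 8276 in laminitis and 7673, 7558 and 7412 in normal tissue, with the groups apart at 0.27 ± 0.18. The widest range was that of RPS12, where a dim probe set had 44.7, 19.8 and 12.0 in laminitis and 122, 147 and 123 in normal tissue. That probe set entered the test through its normal values alone, since its laminitis values lie below their arrays' medians, so its values are a description with no test. The other RPS12 probe sets, at -0.058 and -0.19, overlapped. The dim RPL26 probe set gave -0.65 ± 0.29 with 126, 185 and 264 against 259, 307 and 298, the dim RPL9 ones -0.30 and -0.078, the dim RPS7 one -0.091, and those of RPS4Y1 0.40 and -0.21.

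**Figure D5:**
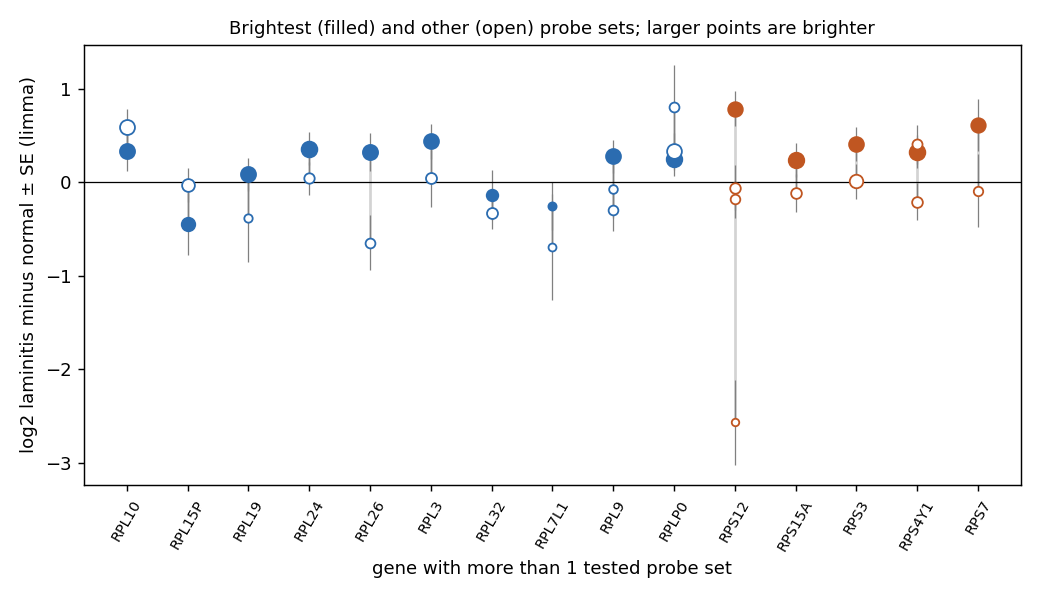
Log2 difference, laminitis minus normal, of every tested probe set of the 15 member genes that have more than 1, with limma's standard error; filled points are the brightest probe set of a gene, open points the others, and larger points are brighter. Open points of dim probe sets lie mostly below the filled point of the same gene, and the lowest is the RPS12 probe set that entered the test through its normal values alone.

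Proteins of the ribosome with other symbols had positive differences as deposited. RACK1, a signalling scaffold on the small subunit, had 8096, 8286 and 6953 in laminitis and 5001, 4505 and 5914 in normal tissue, and a log2 difference of 0.60 ± 0.20. FAU, the precursor of a small subunit protein, had 3595, 3241 and 2528 against 2239, 2013 and 2222, at 0.52 ± 0.21. The groups lay apart in both genes (limma adjusted p 0.450 and 0.494), and after quantile normalization the differences were 0.21 and 0.16, with overlap for FAU.

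Other messages that carry the 5′ pyrimidine tract encode translation factors and a few further proteins. Of 12 such genes tested, 9 were higher without overlap, 1 was lower and the median difference was 0.36. All genes tested had 8.7% higher, 8.36% lower and a median of -0.029. Of the 12 genes 10 were among the brightest 10% of genes tested. With the members left out, that brightest 10% had 26.4% higher, 3.04% lower and a median of 0.24. After quantile normalization the 12 genes had 3 higher, 1 lower and a median of 0.068. All genes tested then had 7.43% higher, 8.11% lower and a median of -0.023. PABPC1, the poly(A)-binding protein, had 7009, 8218 and 7242 in laminitis and 3798, 3552 and 4114 in normal tissue, at 0.97 ± 0.18 (limma adjusted p 0.222), and kept its groups apart at 0.50 after quantile and 0.57 after cyclic loess normalization. EIF3H, an initiation factor subunit, had 0.57 ± 0.18 as deposited (limma adjusted p 0.441) and 0.12 after quantile normalization. None of the 12 passed the limma test over all genes.

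Genes that build ribosomes or govern their proteins, which are mostly dimmer, had medians nearer 0. Of 40 tested ribosome biogenesis factors 23 were positive (57.5%), 4 were higher (10%) and 1 lower (2.5%) without overlap. The shares over all genes tested were 46.4%, 8.7% and 8.36%. The median of the 40 was 0.030, with 0 called by limma. NOB1, the nuclease that finishes the small subunit RNA, had 167, 170 and 231 in laminitis and 72.5, 38.3 and 39.4 in normal tissue, where the normal values lie below every array's median. NOB1 entered the test through its laminitis values alone, so these are a description with no test, and it is 1 of the 4 counted as higher. PNO1, a partner of NOB1, had 189, 200 and 131 against 109, 118 and 91.0, at 0.70 ± 0.24 (limma adjusted p 0.462). The PNO1 groups lay apart under the 4 scalings.

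Of 8 tested genes for RNA polymerase I and its factors 4 were positive, 0 had groups apart and the median was 0.11, with POLR1E at 0.49 ± 0.24 and TBP at -0.45 ± 0.22. Around mTOR and the pyrimidine tract 9 of 12 regulators were positive, where 46.4% of all genes tested were, at a median of 0.14. Of these 12, 1 was higher without overlap, where 8.7% of all genes tested were. That gene was DDIT4, which restrains mTOR, with 2488, 1341 and 1677 in laminitis and 905, 740 and 654 in normal tissue (1.22 ± 0.28, limma adjusted p 0.295), while MAX had 1.48 ± 0.62 with overlapping groups.

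The mitochondrial ribosomal proteins, which form the separate ribosome of mitochondria, had a median near 0 as deposited. Of 53 tested genes 24 were positive (45.3%), 1 was higher (1.89%) and 6 were lower (11.3%) without overlap. Over all genes tested these shares were 46.4%, 8.7% and 8.36%. The median of the 53 was -0.028, with 0 of them in the brightest 10%. MRPL22 had -0.66 ± 0.20 (limma adjusted p 0.424) and MRPL37 1.43 ± 0.45 with overlapping groups (limma adjusted p 0.445). After quantile normalization their median was -0.0078 beside -0.037 for the 67 cytosolic members, and after cyclic loess normalization it was 0.022 beside -0.11.

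Markers of the cell types that the tissue can hold were given the same way. Of 18 keratinocyte markers 8 were tested, with summed signals of 2977 to 4235 in laminitis and 2986 to 4141 in normal tissue, and KRT14, which defines basal epidermis, ranged from 143 to 609 over the 6 arrays. Of 11 tested dermal fibroblast markers VIM and DCN were lower and 1 was higher without overlap, and summed signals were 14843 to 38354 in laminitis and 16449 to 43929 in normal tissue. The 4 tested neutrophil markers summed to 1495 to 12992 in laminitis and 503 to 983 in normal tissue, through S100A8 and S100A9, while MPO lay apart with laminitis lower and ELANE entered the test through its normal values alone. Of 5 monocyte and macrophage markers 2 were positive and 3 negative, at a median log2 difference of -0.16. Only CYBB of these had groups apart, with laminitis higher, and the sums were 857 to 962 in laminitis against 662 to 838. Of 8 T cell markers 1 was higher and 2, CD2 and CD247, were lower without overlap, and of 3 smooth muscle markers TAGLN was lower. The groups overlapped for KRT10, CNN1 and MSR1. The tested markers of B cells (JCHAIN and MS4A1 by smallest p), endothelium (ENG and PECAM1), melanocytes (DCT and MITF) and Schwann cells (S100B and MBP) had overlapping groups, and 0 of 5 erythroid markers with a probe set were bright enough. No marker was at 0 on any array, and the part of these cells in the members' values was not tested. Fewer cells of a type and less RNA per cell cannot be told apart in tissue RNA.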

How the data were processed

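RNA of 6 samples was measured with 1 bovine GeneChip each. The authors deposited a table of linear intensities. The submitters' processing notes name GCRMA with no version. The deposited intensities are linear and share a 2% trimmed mean of 150.0 on every array, so which step made and scaled them is unknown. Array files hold no counts, so the number of arrays limits the precision.

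Genes were named through the platform annotation: of 24016 probe sets, 13292 had 1 symbol, 86 several and 10638 none, and 112 control probe sets were left out. No 2 arrays held identical values. Log2 intensities of 12519 probe sets were tested with limma 3.58.1 in R 4.3.3, laminitis against normal (two-sided), adjusted by Benjamini-Hochberg over these probe sets, with a threshold of 0.05. Differences are laminitis minus normal, errors are limma's SE and n is 3 arrays per group. The brightest tested probe set stood for a gene. The script was tested on simulated data.

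Named were, in each subunit, the 4 members of smallest p in each direction and the 3 brightest, with the stalk, the paralogues, RPS19BP1, RPSA, members whose probe sets differed in sign by over 0.5, and the 2 genes of smallest p of each related list. RPL8, RPL10, RPL37 and RPS19, and the markers MPO and ELANE, were named after their values were seen. The members and lists were chosen with earlier results of these data known. Numbers 3 and 4 occur in both groups, but nothing in the labels says that they mark pairs, so they were not treated as pairs. Deviations of same-numbered samples from their group means correlated at r -0.017 and -0.031. With 3 arrays per group this check cannot exclude pairing. Ribosomal protein genes have many near-identical copies, and probe sets ending in _s_at, _x_at or _a_at can read related transcripts, so single values are uncertain. The RefSeq horse gene table held 67 of the 69 symbols, all but RPL15P and RPS4Y1.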

Additional observations from a re-analysis of the deposited data

How the results depend on the processing

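As deposited, the large and small subunit had medians of 0.26 and 0.39, 20 and 18 members higher without overlap, 32 and 24 positive, and 6 and 5 higher at an unadjusted limma p under 0.05. Quantile normalization gave medians of -0.086 and 0.020, 4 and 2 higher without overlap, 13 and 14 positive, and 1 and 0 at p under 0.05, with 6 members lower without overlap and 2 lower at p under 0.05. Cyclic loess normalization gave -0.15 and 0.022, 3 and 2, 11 and 13, and 1 and 0, with 9 and 1 lower. Centring on the bright genes, chosen after seeing the data, gave medians of 0.033 and 0.16, and 7 and 8 members higher without overlap. In that scaling 42 members of both subunits together were positive, and 1 and 1 were higher at p under 0.05. There, 1 member was lower without overlap and 1 lower at p under 0.05. Median centring gave medians of 0.34 and 0.47 and 8 small subunit members at p under 0.05. That small subunit count was 2 with no filter, 9 with all 6 arrays above the median and 9 with an offset of 64. An intensity trend with robust variance gave 14 and 12. Over all genes tested the share higher at p under 0.05 was 5.27% as deposited, 4.34% after quantile and 4.62% after cyclic loess normalization. It was 2.08% centred on the bright genes, 6.65% with median centring, 3.57% with no filter and 6.58% with all 6 arrays above the median. It was 6.05% with the offset of 64, 6.34% with the trend and 3.14% with the replicate block given below. The share of all genes tested lower at p under 0.05 was 4.52% as deposited, 3.999% after quantile and 3.43% after cyclic loess normalization. That share was 10.4% centred on the bright genes, 4.75% with the mean over probe sets and 3.06% with the replicate block, both given below. The mean over a gene's probe sets gave a large subunit median of 0.19, 2 members lower without overlap and 1 lower at p under 0.05. The mean for RPS12 takes in the dim probe set that entered the test through its normal values alone. The part of RPS12 in these counts is thus a description with no test. The probe set of median difference gave 0.17 and 1 lower without overlap. The shares of all genes tested lower without overlap were 8.96% with the mean and 9.20% with the probe set of median difference. With the replicate number as a block, which the labels do not call a pairing, 0 and 1 were higher and 2 lower at p under 0.05, with medians of 0.23 and 0.34. Laminitis replicate 1 and normal replicate 2 have no counterpart in the other group. The blocked differences therefore rest on replicates 3 and 4 alone. The causes were not tested.

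With 1 array left out the medians ran from 0.22 to 0.30 and from 0.30 to 0.46, members higher without overlap from 20 to 24 and from 19 to 21, positive members from 31 to 33 and from 24 to 25, and those higher at p under 0.05 from 2 (without normal replicate 3) to 6 and from 1 (without normal replicate 2 or 3) to 9 (without laminitis replicate 4). Groups with fewer arrays lie apart more easily. The share of all genes tested higher without overlap, 8.7% as deposited, then ran from 11.7% (without normal replicate 3) to 17.0% (without laminitis replicate 4). The share higher at p under 0.05 ran from 3.50% to 6.55% in the same 2 runs. Members lower ran from 0 to 5 without overlap and from 0 to 2 at p under 0.05, both highest without laminitis replicate 1, where the shares over all genes tested were 14.2% and 4.41%. Limma called 0 members under every alternative run.

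Positive members fell from 56 as deposited to 27 after quantile and 24 after cyclic loess normalization. Of the 28 members named by the rule, those that turned direction are given here. After quantile normalization RPL26 was -0.096, RPL30 -0.14, RPL9 -0.13, RPLP0 -0.066, RPS27 -0.074, RPS3A -0.072 and RPS4Y1 -0.0071. After cyclic loess normalization RPL24 was -0.21, RPL26 -0.17, RPL30 -0.36, RPL5 -0.26, RPL9 -0.19, RPLP0 -0.30, RPS27 -0.36, RPS3A -0.35 and RPS4Y1 -0.24. Centred on the bright genes RPL30 was -0.039, RPS27 -0.014 and RPS3A -0.00013. Median centring gave RPS27L 0.064. The mean over probe sets gave RPL26 -0.16, RPL9 -0.036 and RPS12 -0.51. That RPS12 value takes in the dim probe set that entered the test through its normal values alone. The probe set of median difference gave RPL26 -0.65, RPL9 -0.078, RPS12 -0.19 and RPS7 -0.091. The replicate block gave RPL3L 0.17. With 1 array left out RPL3L ran from -0.34 to 0.14 and RPS27L from -0.14 to 0.050.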

Other observations

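Among the 11 member probe sets too dim for the test, chosen here after their values were seen, an RPS3 probe set had signals of 300, 156 and 52.2 on laminitis replicates 1, 3 and 4 and 49.9, 52.0 and 47.8 on normal replicates 2, 3 and 4. A dim RPL21 probe set had 92.8, 61.7 and 96.8 in laminitis and 34.1, 40.3 and 41.1 in normal tissue.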
